A study of Mus musculus with 2 samples.

Results

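The cells described here are colonic mesenchymal cells with transcripts of Wif1, Bmp3 or both, which encode secreted signalling proteins, together with transcripts of Foxl1, Sox6 or Bmp7. They were 2080 of the 27768 cell barcodes kept from the series. A barcode was kept with at least 1000 unique molecular identifiers (UMIs, 1 per captured transcript), at least 500 genes and at most 10% mitochondrially encoded UMIs. A kept barcode was a member when it had no UMI of Ptprc (CD45), at least 2 UMIs of Wif1 and Bmp3 summed, at least 1 UMI of Foxl1, Sox6 and Bmp7 summed, and no more Nrg1 than Wif1 and Bmp3 UMIs. These raw counts chose the members, so the levels of these genes are given as a description only.

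The series measured gene expression in single mesenchymal cells of the mouse large intestine with 10x Genomics 3' libraries. The sort kept gp38+ cells (gp38 is podoplanin, encoded by Pdpn) and removed cells with the leukocyte protein CD45, the epithelial protein EpCAM or the endothelial protein CD31. There were 2 libraries: ff, from C57BL/6 mice, and GF, from Balb/c mice. The design text names adult mice over 8 weeks of age and germ-free mice. The labels attach neither description to a library, and the abbreviation ff is not spelled out. Strain, library and housing status cannot be told apart, the number of mice per library is not given, and no treatment or genotype beyond strain is named. With 1 library per group, no test between the groups was possible, and every difference between ff and GF compares 2 libraries.

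Subepithelial mesenchymal cells lie directly under the intestinal epithelium. Those with high Foxl1, a forkhead transcription factor that responds to epithelial Hedgehog signals, are known as telocytes or subepithelial myofibroblasts. They are known sources of BMP ligands, which favour differentiation of epithelial cells, and of non-canonical WNT ligands. Wif1 encodes a secreted protein that binds WNT ligands, and Bmp3 encodes an atypical BMP that counters other BMPs. Sox6 encodes a transcription factor and Bmp7 a BMP ligand.

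The ff library contributed 1280 members of 12702 kept barcodes, or 10.1% (95% Clopper-Pearson interval 9.56 to 10.6). The GF library contributed 800 of 15066, or 5.31% (4.96 to 5.68). Both intervals cover counting error only. The share was thus lower in GF, and with barcodes thinned to 3000 UMIs before the rule was applied it was 4.29% in ff and 2.74% in GF. The GF library also held more leukocyte barcodes with a Ptprc UMI, 8.70% against 1.28% in ff. Among collagen-positive barcodes without Ptprc, Pecam1 or Epcam UMIs, together with the members, the shares were 11.0% and 7.02%. Members had a median of 9354.5 UMIs in ff and 8004.5 in GF, and the other kept barcodes 8934.5 and 6383. No member barcode occurred among the members of both libraries, 48 kept barcodes occurred in both, and 7 members carried a barcode also kept in the other library.

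The genes of the rule were unevenly detected. Members with both a Wif1 and a Bmp3 UMI numbered 804 in ff (62.8%) and 376 in GF (47%). Members with Bmp3 UMIs only numbered 363 in ff (28.4%) and 392 in GF (49%), and those with Wif1 only 113 and 32. A Foxl1 UMI was found in 32.3% of ff and 43.8% of GF members, a Sox6 UMI in 90.5% and 79.5%, and a Bmp7 UMI in 86.6% and 88.1%. The label "Foxl1-high" therefore rested on a Foxl1 UMI in under 1 in 2 members, and most members entered through Sox6 or Bmp7. Summed over members, Wif1 stood at 234 in ff and 157 in GF, in counts per 1000000 UMIs (CPM), Bmp3 at 305 and 405 CPM, Sox6 at 340 and 324 CPM, Bmp7 at 243 and 328 CPM, and Foxl1 at 45.9 and 76.0 CPM. On the mouse assembly GRCm38 the 5 genes lie at chr10:121033960-121100650 (Wif1), chr5:98854415-98884396 (Bmp3), chr8:121127940-121130644 (Foxl1), chr7:115470872-116038796 (Sox6) and chr2:172868012-172940321 (Bmp7), spans of whole genes in the GENCODE annotation.

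Just inside the threshold, with a Wif1 and Bmp3 sum of exactly 2, were 254 ff and 217 GF members. Just outside it, with a sum of 1 and the other criteria met, were 401 ff and 419 GF barcodes. Procr, an endothelial protein C receptor and a marker not used by the rule, stood at 892 in ff and 451 CPM in GF just inside, and at 561 and 234 CPM just outside. It stood at 1319 and 1025 CPM in members with both Wif1 and Bmp3. The summed level of this gene was thus lower at each step across the boundary. The mix of cells can differ between these groups, and whether Procr was graded among single cells was not tested.

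**Figure D1:**
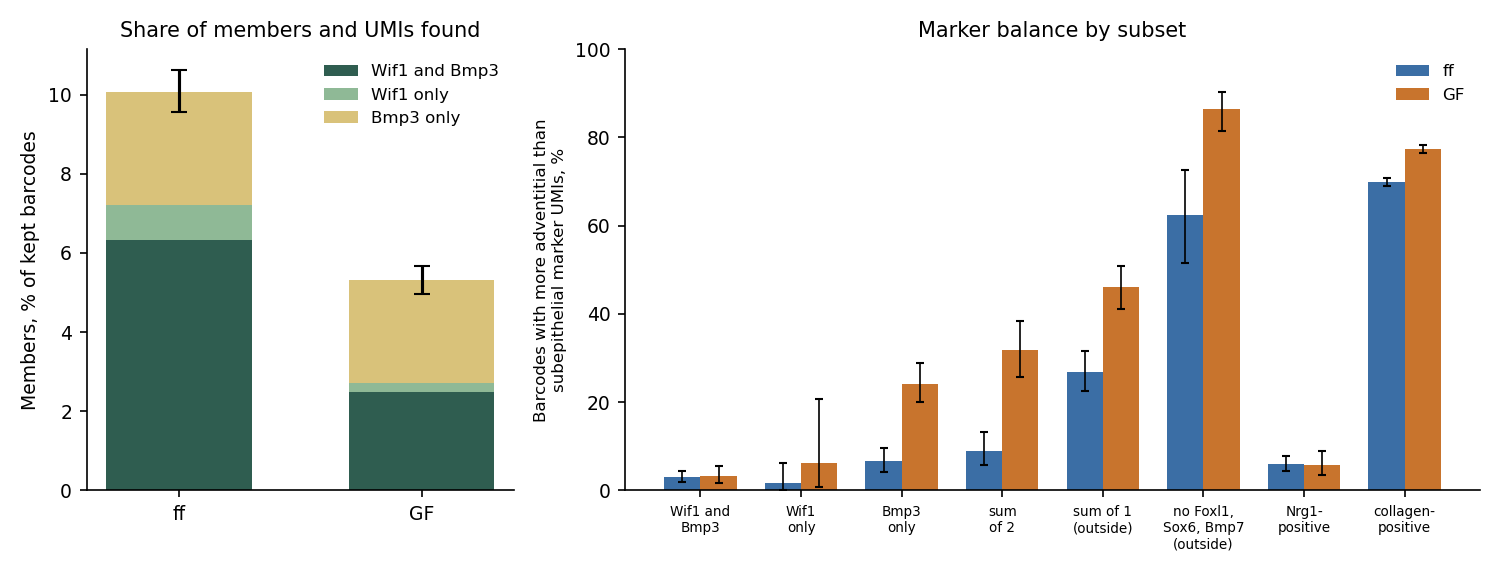
Left: members as a percentage of kept barcodes in each library (bars from 0), split by which of Wif1 and Bmp3 was detected, with the 95% Clopper-Pearson interval of the whole share. Right: percentage of barcodes with more adventitial than subepithelial marker UMIs in subsets of members, in barcodes that failed one criterion ("outside") and in 2 other classes, with the same kind of interval. The GF members with Bmp3 only stood at 24.2%, against 3.19% of GF members with both genes.

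The subepithelial identity was checked with 12 markers that the rule did not use. Of these, 8 were at least 2-fold higher in members than in other kept barcodes in both libraries. They included Pdgfra, the PDGF receptor that marks these cells, F3 (tissue factor), Wnt5a, Bmp5 and the growth factor Fgf9. The exceptions in both libraries were Agt (angiotensinogen), Tnc (tenascin C) and Fbln2 (fibulin 2). Tnc was higher without reaching 2-fold. Agt was lower without reaching 2-fold, at 37.3 in ff and 20.1 CPM in GF members against 63.0 and 30.6 CPM. Fbln2 was lower by 2.15 and 1.59 on the log2 scale. Hhip, a Hedgehog-binding protein and the last of the 12, differed in direction between the libraries.

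Adventitial or submucosal fibroblast markers were present in some members, more so in GF. The 9 markers of that kind summed to 634 CPM in ff members and 1103 CPM in GF members, against 3271 and 4257 CPM in other kept barcodes. The marker balance used 11 subepithelial markers and left out Fbln2, which was lower in members. The balance with all 12 is not given. Members with more adventitial than subepithelial marker UMIs numbered 50 of 1280 in ff (3.91%) and 109 of 800 in GF (13.6%). They were concentrated among Bmp3-only members of GF, where they made up 95 of 392 (24.2%), against 12 of 376 GF members with both genes (3.19%). For that part of the GF members the data go against the subepithelial label. In members with both Wif1 and Bmp3 alone, 326 genes were higher in both libraries and 738 lower, by the 2-fold rule described below. The comparison there was with all kept barcodes outside that subset, the remaining members included.

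Lamina propria fibroblast markers had a high summed level in members, but none of the 7 was at least 2-fold higher than in other barcodes. In both libraries 4 of the 7 were at least 2-fold lower, with median log2 ratios of -1.52 in ff and -1.28 in GF. The 7 markers summed to 2938 CPM in ff and 5398 in GF members, against 3349 and 4214 CPM in other barcodes and 4916 and 7385 CPM in Nrg1-positive cells, a class described below. Adamdec1, a secreted metalloproteinase of gut stroma, gave most of that sum, with 2717 and 4869 CPM in members. The 5 markers of interstitial cells of Cajal summed to 148 and 146 CPM in members against 54.5 and 59.6 CPM outside, of which the transcription factor Etv1 gave 133 and 121 CPM. The defining gene Kit stood at 0.374 and 6.38 CPM in members, and Hand1 was at 0 in GF. Of the 8 epithelial markers, the sum was 7.25 in ff and 3.69 CPM in GF members, with Krt20 at 0 in ff and Krt18, Cdh1 and Muc2 at 0 in GF. The 8 T or innate lymphoid markers summed to 0.822 and 3.83 CPM, with Cd3e, Cd3g, Il7r and Nkg7 at 0 in ff and Nkg7 at 0 in GF. The 7 blood endothelial markers summed to 8.07 and 11.6 CPM, and the 8 myeloid markers to 13.8 and 12.6 CPM, with Itgax at 0 in both, Cx3cr1 at 0 in ff and Csf1r and Adgre1 at 0 in GF. The 7 B or plasma cell markers summed to 131 and 142 CPM, of which Xbp1, a gene that many secretory cells express, gave 125 and 139 CPM. Pdpn, the sort marker, stood at 286 in ff and 326 CPM in GF members. The 7 pericyte markers summed to 181 and 180 CPM, above the 83.4 and 107 CPM of other barcodes: the potassium channel subunits Kcnj8 and Abcc9 and the proteoglycan Cspg4 were higher in members, and the classical pericyte gene Rgs5 was lower (7.48 against 37.2 in ff, 13.2 against 68.9 CPM in GF). The doublet caller Scrublet marked 10.9% of ff and 11.6% of GF members, against 4.24% and 5.09% of all kept barcodes.

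Against the other kept barcodes of the same library, 326 of 11607 measured genes (2.81%) were at least 2-fold higher in members in both libraries and 613 (5.28%) at least 2-fold lower. Within ff alone 3.57% of genes were higher and 7.29% lower, and within GF alone 4.26% and 6.55%. Here a gene was measured with at least 200 UMIs over kept barcodes in each library, and a ratio is log2 of members over others after adding 1 CPM to each level. The median ratio over all measured genes was 0.10 in ff and 0.12 in GF. The other barcodes include every other cell type of the sort.

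The gene with the highest mean ratio over both libraries was Palmd, which encodes palmdelphin, at 63.8 CPM in ff members and 61.4 CPM in GF members, against 3.57 and 2.10 CPM in other barcodes (log2 3.83 and 4.33). Casq2, the calcium-binding protein calsequestrin 2 of the sarcoplasmic reticulum, followed with 154 and 144 CPM against 25.5 and 3.24 CPM. Casq2 was similar in the members of both libraries, and its level outside them was higher in ff. In the Nrg1-positive class it stood at 137 and 10.7 CPM. Pde1c, a calmodulin-dependent phosphodiesterase, stood at 49.2 and 83.5 CPM against 3.95 and 4.46 CPM. Procr stood at 1220 CPM in ff (95% Poisson interval 1201 to 1238) and 777 CPM in GF (756 to 798), against 135 and 70.0 CPM outside. The other 11 of the 15 highest genes were Bean1, Cybrd1 (a ferric reductase), Fam180a, Sv2b (a synaptic vesicle protein), Alcam (an adhesion molecule), Hpse2, Edn3, Lrrc55, Wnt5a, Ednrb and Emid1, with log2 ratios between 2.22 (Ednrb in ff) and 3.97 (Ednrb in GF). Against the collagen-positive barcodes alone the calls for all 15 held in both libraries, with Palmd at 3.94 and 4.38.

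**Figure D2:**
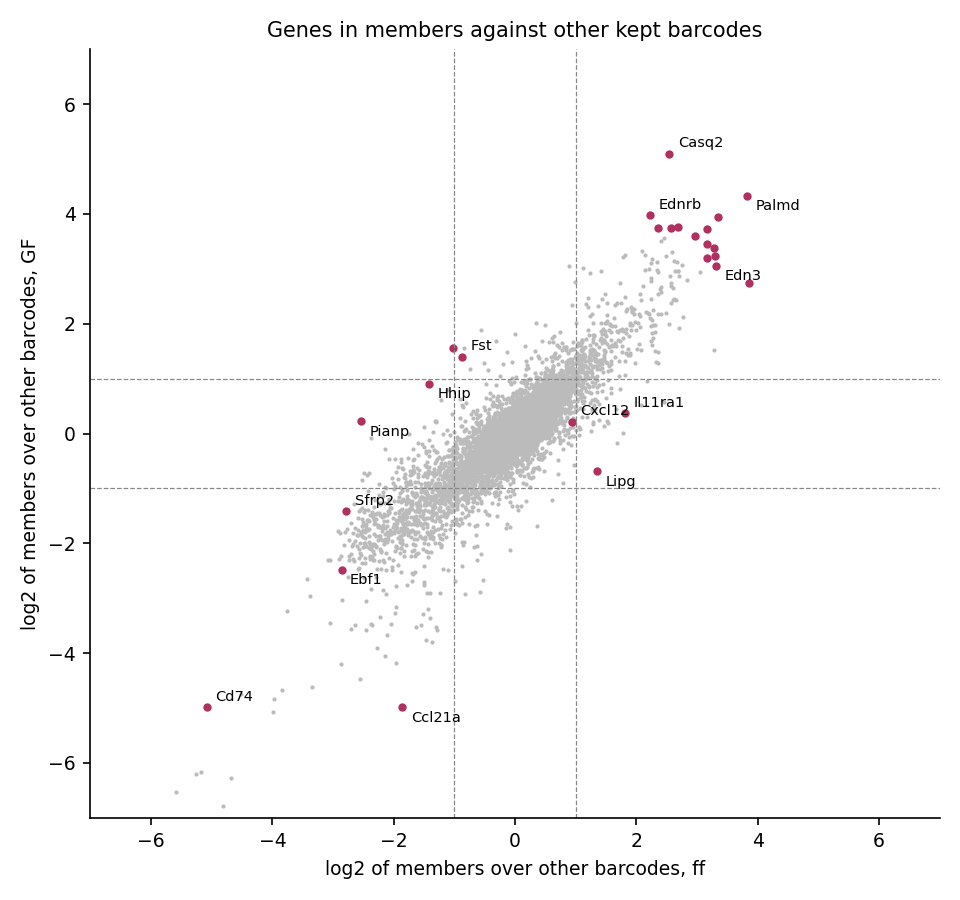
Each point is 1 of the measured genes, the rule's genes left out; the axes give log2 of members over other kept barcodes in ff (x) and GF (y), and dashed lines mark 2-fold. Palmd stands at 3.83 and 4.33 in the upper right, and Hhip at -1.42 and 0.91 lies off the diagonal.

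The 15 lowest genes were for the most part leukocyte and lymphatic endothelial genes. Cd74, the MHC class II invariant chain, stood at 2.39 in ff and 11.6 CPM in GF members, against 113 and 398 CPM in other barcodes. H2-Aa, Cd52, H2-Eb1, Laptm5, Cytip, Mzb1, Il1b, Cd79a, Arhgdib, Ctss and Cd53 were also among them, and the rule had removed barcodes with a Ptprc UMI. Against collagen-positive barcodes, Cd53 turned to 0.20 in GF, and the lymphatic genes Ccl21a and Mmrn1 turned to 2.36 and 1.14 in ff. The variance of Ccl21a over ff members was 85.9 times the counting expectation. On that comparison Myoc (myocilin), at -3.38 in ff and -2.52 in GF, was the only one of the 15 at least 2-fold lower in both libraries. In 1 library Cd74 (-1.20 in ff), H2-Aa (-1.14 in ff) and Ccl21a (-1.68 in GF) were also at least 2-fold lower. Of 76 called values of named genes, 23 fell under 2-fold against collagen-positive barcodes.

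BMP ligands were among the genes higher in members. Of 8 measured BMP, GDF and activin ligands among 16 listed, 3 were at least 2-fold higher in both libraries and 1 lower, with a median log2 ratio of 0.65 in ff and 0.90 in GF. Bmp5 stood at 1020 in ff and 579 CPM in GF members, against 243 and 98.4 CPM outside (log2 2.06 and 2.55). Bmp2 stood at 571 and 831 CPM against 253 and 161 CPM. Inhba, the activin A subunit, stood at 65.5 and 79.1 CPM against 26.2 and 22.1 CPM. Bmp4 was 1190 and 1100 CPM in members, with ratios of 0.84 and 0.90 that stayed under 2-fold, and Gdf10 was the ligand that was lower (1.87 and 4.54 CPM against 16.1 and 29.1 CPM).

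Among 17 measured BMP receptors and targets of 18 listed, 1 was higher in both libraries and 1 lower. Id1, a direct BMP target, stood at 402 and 477 CPM in members against 186 and 168 CPM, and Id4 was lower. Of 11 measured BMP and activin antagonists of 14, 1 was higher and 3 lower, with medians of -0.75 and -0.55. The one that was higher was Nbl1, a secreted BMP antagonist of the DAN family, at 1701 in ff and 1785 CPM in GF members against 382 and 383 CPM. Those that were lower were Grem1 (gremlin 1, 53.4 and 18.3 CPM against 207 and 101 CPM), Chrdl1 and Htra3.

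WNT genes split by member. Wnt5a, a non-canonical ligand, stood at 469 CPM in ff (457 to 480) and 660 CPM in GF members (641 to 679), against 78.4 and 48.3 CPM outside. It was the only one of 11 measured WNT ligands and R-spondins, of 13 listed, that was higher in both libraries, and 4 were lower. The 4 were Wnt2, Wnt9a, Rspo1 and Rspo3, of which Rspo3, an amplifier of canonical WNT signalling, stood at 5.31 and 4.54 CPM against 22.3 and 22.4 CPM. Of 8 measured WNT inhibitors of 13 (Wif1 itself is not counted), Dkk2 was higher at 9.12 and 14.5 CPM against 2.14 and 3.28 CPM, and 5 were lower. Sfrp1, a secreted frizzled-related protein, stood at 88.1 and 102 CPM against 464 and 502 CPM, and Sfrp2 at 11.4 and 38.1 CPM against 84.5 and 103 CPM. Sfrp2 was 10.3 CPM in GF members with both Wif1 and Bmp3 and 63.4 CPM in those with Bmp3 only. Of 23 measured receptors and targets, Ror2, a receptor for Wnt5a, and Fzd2 were higher (Ror2 at 48.7 and 29.9 CPM against 14.3 and 8.44 CPM), and Lef1, Fzd4 and Nkd2 were lower.

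Hedgehog pathway genes were divided. Of 13 measured genes, the receptor and target Ptch1 (426 and 599 CPM against 210 and 220 CPM) and the transcription factor Foxf2 were higher in both libraries, and the co-receptors Gas1 and Cdon were lower. The median was -0.19 in ff and 0.08 in GF.

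Growth factors for other receptors were also found. Fgf9 stood at 123 and 202 CPM in members against 27.2 and 20.3 CPM outside, and the FGF-pathway inhibitor Spry4 was also higher. Fgf7 (keratinocyte growth factor), Fgf18, Fgfr2 and Fgfr4 were lower, which made 2 higher and 4 lower of 14 measured FGF genes. Of 5 measured EGF-family ligands, Nrg2 (27.1 and 26.2 CPM against 4.93 and 2.80 CPM) and Btc (betacellulin, 34.6 and 31.6 CPM against 6.67 and 6.17 CPM) were higher, and Hbegf was lower. Ereg had a higher level than Nrg2 and Btc, at 388 in ff and 763 CPM in GF members against 447 and 316 CPM. It was at least 2-fold higher in GF only. Pdgfra stood at 1289 and 1391 CPM against 425 and 355 CPM and was the PDGF family gene higher in both, of 6 measured.

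Endothelin genes were higher at several steps. Edn3, an endothelin ligand, stood at 79.7 in ff and 61.5 CPM in GF members, against 7.08 and 6.52 CPM. The receptors Ednra (261 and 202 CPM against 54.3 and 36.2 CPM) and Ednrb (251 and 529 CPM against 52.8 and 32.8 CPM) and the processing enzyme Ece1 (361 and 516 CPM against 148 and 156 CPM) were higher too. With the vessel-stabilising ligand Angpt1 they were the 5 genes higher in both libraries among 15 measured vascular and lymphatic growth factor genes, and Vegfd and Pgf were lower.

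Cxcl12, the chemokine in the title of the series (chr6:117168535-117181367), was higher in members by a small margin. It stood at 1730 CPM in ff (1708 to 1752) and 1148 CPM in GF members (1123 to 1174), against 902 and 988 CPM in other barcodes. The log2 ratio was 0.94 in ff (0.92 to 0.96) and 0.22 in GF (0.18 to 0.25), and neither reached 2-fold. In GF members with both Wif1 and Bmp3 the ratio was 0.08, here against all kept barcodes outside that subset, the remaining members included. In barcodes thinned to 3000 UMIs, a Cxcl12 UMI was found in 97.1% of ff and 88.4% of GF members, 76.7% and 74.2% of other barcodes, and 34.7% and 31.2% of leukocyte barcodes, shown as a class of another lineage. The unthinned shares were 99.8% and 97.9% in members and 44.4% and 20.9% in leukocytes, at median depths of 9354.5 and 8004.5 against 7169 and 2907 UMIs. Thinning left out barcodes under 3000 UMIs, which were 692 of 1311 GF leukocyte barcodes and 8 of 800 GF members. The thinned GF leukocyte share thus describes the deeper barcodes of that class only. Col6a5-positive lamina propria cells (at least 2 Col6a5 and 1 Adamdec1 UMIs) stood at 1663 in ff and 1823 CPM in GF, so the members were not the class with the most Cxcl12 in GF.

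Of 21 measured chemokine genes, Cxcl14 was the one higher in both libraries (490 and 604 CPM against 86.9 and 130 CPM), and 10 were lower, including the monocyte and eosinophil attractants Ccl2 (93.7 and 154 CPM against 495 and 651 CPM), Ccl7 and Ccl11. The list's medians were -1.30 and -0.96. Of 26 measured cytokine genes, 1 was higher and 6 lower. Il34, a ligand of the CSF1 receptor, stood at 62.2 and 66.6 CPM against 20.5 and 21.6 CPM, and Il33 and Il6 were among those lower (Il33 at 10.8 and 23.7 CPM against 73.1 and 94.5 CPM). Il11ra1, an interleukin 11 receptor chain, was 565 CPM in ff members against 160 CPM, and 151 CPM in GF members against 117 CPM.

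**Figure D3:**
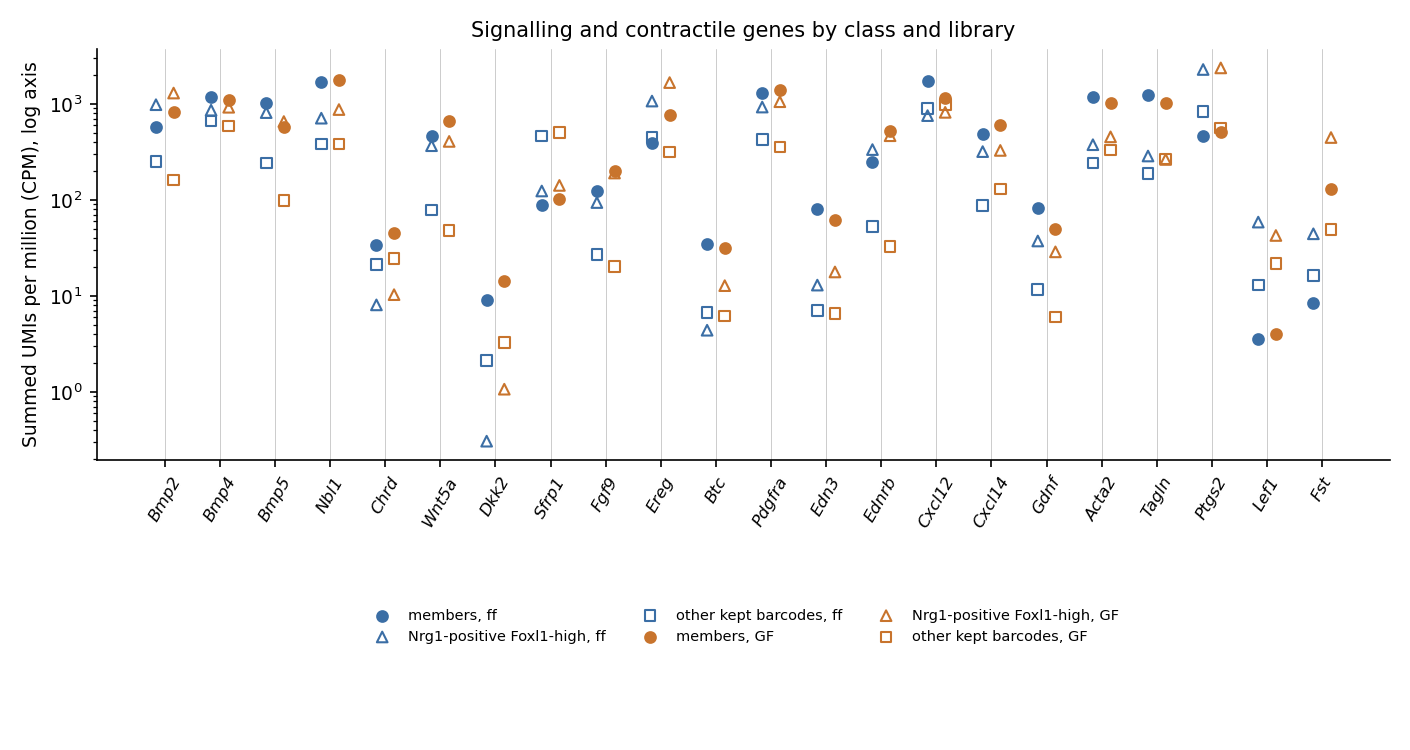
Levels of 22 signalling, contractile and related genes (CPM of summed UMIs, log axis) in members (filled circles), Nrg1-positive Foxl1-high cells (triangles) and other kept barcodes (squares), ff in blue and GF in orange. Nbl1 stood at 1701 and 1785 CPM in members, and Ptgs2 at 2289 and 2377 CPM in Nrg1-positive cells against 459 and 514 CPM in members.

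Contractile genes showed a divided pattern. Of 23 measured, 9 were higher in both libraries and 3 lower, with medians of 0.59 and 0.60. Tagln (transgelin) stood at 1229 in ff and 1017 CPM in GF members, against 188 and 267 CPM outside. Acta2, smooth muscle actin and the classical myofibroblast gene, stood at 1171 and 1018 CPM against 243 and 331 CPM. Mylk and Myl9, myosin light chain kinase and a light chain, and Actn1, Cald1, Cnn2, Tpm1 and Tpm2 were also higher. The 3 that were lower were the visceral muscle genes Des (desmin, 3.96 and 12.8 CPM against 33.6 and 46.4 CPM), Actg2 and Lmod1. In smooth muscle cells (at least 2 Des and 2 Actg2 UMIs, 63 ff and 49 GF barcodes) Acta2 stood at 7126 and 9301 CPM, above its level in members. Myh11, the smooth muscle myosin heavy chain, was at 98.2 and 106 CPM in members and 70.9 and 105 CPM in other barcodes.

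Matrix genes were lower more often than higher. Of 32 measured glycoprotein and proteoglycan genes, 2 were higher in both libraries and 11 lower, with medians of -0.91 and -0.66. Ogn (osteoglycin, 3438 and 2041 CPM against 1077 and 559 CPM) and Has2, a hyaluronan synthase (267 and 326 CPM against 88.6 and 114 CPM), were the 2. Has1, another hyaluronan synthase, went the other way, at 94.9 and 329 CPM against 615 and 1371 CPM. Of 24 basement membrane genes, the collagen IV chains Col4a5 (483 and 423 CPM against 90.9 and 65.2 CPM) and Col4a6 were higher, and 5 were lower. Of 16 fibrillar and other interstitial collagens, none was higher in both, and Col14a1 and Col8a1 were lower. Of 15 complement genes, Masp1 was higher (85.6 and 31.8 CPM against 16.2 and 12.2 CPM) and 7 were lower, among them C3 (163 and 302 CPM against 1034 and 1505 CPM).

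Of 49 measured transcription factor genes of gut mesenchyme, 6 were higher in both libraries: Foxf2, Tbx2, Runx2, Nkx2-3, Trps1 and Sox4. Nkx2-3, a homeobox gene of gut mesenchyme, had the highest level of the 6 at 272 and 461 CPM against 135 and 188 CPM, and Tbx2 stood at 54.2 and 98.0 CPM against 23.5 and 29.2 CPM. In the other direction were 16 genes, led by Ebf1 (39.2 and 68.6 CPM against 291 and 388 CPM), Foxp2 and Prrx1. No measured Hox gene of 18 was higher in both, and Hoxb2, Hoxb3 and Hoxb4 were lower.

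Genes named for the nervous system and for retinoid metabolism were also divided. Of 47 measured axon guidance and neural genes, 5 were higher and 15 lower. Gdnf, a neurotrophic factor for enteric neurons, stood at 81.5 and 50.3 CPM against 11.6 and 6.05 CPM, and Efnb2 (ephrin B2) at 245 and 265 CPM against 40.7 and 40.3 CPM. Of 13 measured retinoid genes, 4 were higher and 3 lower. The 4 were Aldh1a1 (509 and 381 CPM against 85.0 and 56.2 CPM) and Aldh1a2, both retinaldehyde dehydrogenases, Rdh10, which acts one step before them, and the retinol carrier Rbp4. Cyp26b1, a retinoic acid-degrading enzyme, was among the 3 lower, as was Aldh1a3.

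Cholesterol synthesis genes were higher or near the other barcodes: of 24 measured, 5 were higher in both libraries and none lower, and the medians of 0.87 and 0.73 stood above the 0.10 and 0.12 of all genes. Fdps, farnesyl diphosphate synthase (214 and 152 CPM against 64.4 and 60.3 CPM), Sqle and Lss were among the 5. Of 34 measured interferon-stimulated genes, 4 were higher and none lower (Ifit3, Ifit2, Igtp and Ifi27), with medians of 0.47 and 0.46. No glycolysis gene of 15 reached 2-fold, and of 23 immediate early genes, which cell dissociation can induce, Egr3 was lower and none was higher.

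A second Foxl1-high class in the same libraries, cells with Nrg1 above Wif1 and Bmp3, is the closest comparison. It was defined by at least 2 Nrg1 UMIs with a Foxl1, Sox6 or Bmp7 UMI and comprised 798 ff and 328 GF barcodes. Foxl1 stood at 46.1 and 42.6 CPM there, against 45.9 and 76.0 CPM in members. Over all 11607 genes, 141 (1.21%) were at least 2-fold higher in members than in Nrg1-positive cells in both libraries and 158 (1.36%) lower. Within ff alone 2.47% were higher and 2.98% lower, and within GF alone 2.79% and 2.4%. Among the listed genes and markers, 36 were higher and 47 lower, the 4 haemoglobin genes among the latter. The number of listed genes measured is not given, so these counts cannot be set against the shares of all genes. The choice of both classes by Nrg1, Wif1 and Bmp3 fixed part of this contrast.

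Members had more of Dkk2, Edn3, Btc and the BMP antagonist Chrd than Nrg1-positive cells. Edn3 stood at 13.0 in ff and 17.8 CPM in GF Nrg1-positive cells, against 79.7 and 61.5 CPM in members. Chordin (Chrd) stood at 8.06 and 10.3 CPM against 33.7 and 44.9 CPM, and Nbl1 at 711 and 875 CPM against 1701 and 1785 CPM. The contractile genes Tagln (287 and 264 CPM against 1229 and 1017 CPM), Acta2 and Myl9 were higher in members as well. So were Ptgis, prostacyclin synthase (34.9 and 22.7 CPM against 216 and 94.1 CPM), Masp1, Il11ra1, the WNT receptor Fzd2, Efnb2 and Abcc9. Cxcl12 was 757 and 818 CPM in Nrg1-positive cells, with member ratios of 1.19 in ff and 0.49 in GF.

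Nrg1-positive cells had more of Ptgs2, the inducible cyclooxygenase (2289 and 2377 CPM against 459 and 514 CPM in members). They also had more of the EGF-receptor ligand Ereg (1073 and 1672 CPM against 388 and 763 CPM), Lef1 (58.8 and 42.6 CPM against 3.51 and 3.97 CPM), Agt (332 and 205 CPM against 37.3 and 20.1 CPM), Tnc and Postn. The transcription factors Prdm1 and Tbx3, the mechanosensitive channel Piezo2, the IL-33 receptor Il1rl1 and the activin antagonist Fst were higher there too. Prdm1 stood at 152 and 213 CPM in Nrg1-positive cells and at 15.8 and 33.9 CPM in members. Of the genes highest in members against all other barcodes, Emid1 (266 and 320 CPM) and Ednrb (335 and 467 CPM) were near their member levels in Nrg1-positive cells. Bean1 (72.8 and 93.1 CPM there) was higher in members by less than 2-fold in both libraries. Casq2 in ff, and Cybrd1, Sv2b and Alcam in GF, were also within 2-fold, in that library only. Bmp2 was higher in Nrg1-positive cells without reaching 2-fold (983 and 1301 CPM against 571 and 831 CPM), and Bmp5, Bmp4, Wnt5a, Fgf9 and Pdgfra differed by less than 2-fold. The 4 haemoglobin genes summed to 267 and 555 CPM in Nrg1-positive cells and to 3.89 and 0.709 CPM in members, and a UMI of them was found in 3.51% and 1.22% of Nrg1-positive cells.

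Members varied among themselves. Of 5281 genes with at least 200 UMIs in the members of each library, 464 had a variance over barcodes at least 2 times that expected from counting in both libraries, and the median ratio was 1.14 in ff and 1.13 in GF. The 15 most variable genes were Malat1, Gsn, Mgp, Igfbp5, Dcn, Adamdec1, Cxcl10, Ccl2, C3, Ccl7, Has1, Pi16, Fos, Cxcl2 and Mfap5. Dcn (decorin) had a median of 33.5 UMIs per 10000 in ff members, with quartiles of 15.7 and 66.8, and a median of 47.7 in GF members, with quartiles of 23.9 and 93.3. Pi16, an adventitial fibroblast gene, was detected in 6.80% of ff and 14.5% of GF members, and the fullest barcode held 69 and 70 UMIs. Cxcl12 was more even: its quartiles were 10.5 and 24.1 UMIs per 10000 in ff and 5.53 and 16.8 in GF.

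Members with both Wif1 and Bmp3 differed from those with Bmp3 only in several subepithelial genes, in both directions. Procr stood at 1319 against 993 in ff and 1025 against 577 CPM in GF, and Wnt5a at 504 against 417 in ff and 861 against 495 CPM in GF. F3 and Bmp5 were also higher in both libraries. Tnc (201 against 295 in ff, 103 against 143 CPM in GF) and Agt (28.6 against 56.5 in ff, 8.77 against 30.7 CPM in GF) were lower. Pdgfra was level in ff, at 1314 against 1309 CPM, and Ednrb was lower in ff, at 223 against 327 CPM. The adventitial gene Pi16 was lower too, at 20.7 against 56.2 in ff and 59.8 against 157 CPM in GF. Bmp2 did not keep an order, with 533 against 668 in ff and 938 against 728 CPM in GF. Cxcl12 was lower in members with both genes, at 1685 against 1894 in ff and 1055 against 1245 CPM in GF.

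**Figure D4:**
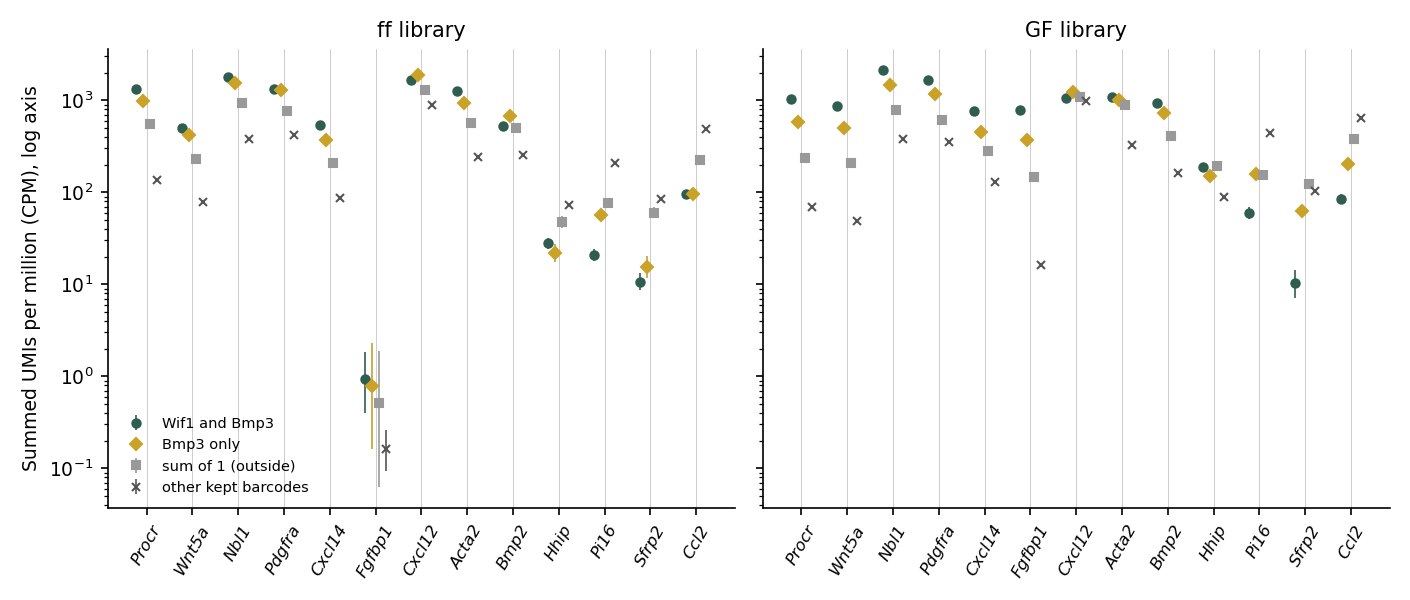
Levels (CPM of summed UMIs, log axis, with 95% Poisson intervals) of 13 genes in members with both Wif1 and Bmp3, in members with Bmp3 only, in barcodes just outside the threshold (sum of 1) and in other kept barcodes, for ff (left) and GF (right). Procr is lower at each step across the 4 groups in both libraries, from 1319 to 135 CPM in ff and from 1025 to 70.0 CPM in GF.

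Between the libraries, 136 of 8616 genes (1.58%) were at least 2-fold higher in GF than in ff members and 113 (1.31%) lower. The same comparison in other kept barcodes gave 63 genes higher (0.731%) and 95 lower (1.10%), of which 48 and 55 were shared with the members. In members with both Wif1 and Bmp3, 82 genes were higher in GF and 92 lower. The number of genes compared in that subset is not given, so these counts cannot be set against those of all members. The genes below thus mix differences seen throughout the libraries with differences larger in the members.

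Fgfbp1, a secreted carrier of FGFs (chr5:43978858-43981779), had the largest ratio after 1 CPM was added; genes with 0 or 1 UMI in ff members cannot be ranked against it. It stood at 0.897 CPM in ff members, from 12 UMIs, and at 559 CPM in GF members, from 3947 UMIs, a log2 difference of 8.21 (8.48 to 10.24 without the added CPM). In other barcodes it stood at 0.162 and 16.2 CPM, and in Nrg1-positive cells at 0.918 and 217 CPM, so in GF it was highest in members among these 3 classes. A Fgfbp1 UMI was found in 60.2% of GF members and 0.703% of ff members. With barcodes thinned to 3000 UMIs these shares were 49.4% and 0.392%. Among GF leukocyte barcodes that reached that depth the share was 1.78%, and among all of them unthinned it was 1.30%. GF members with both Wif1 and Bmp3 stood at 791 CPM and those with Bmp3 only at 372 CPM.

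Several of the largest differences were present to a like extent in members and other barcodes. C1s2 and Gbp2b had no UMI in ff members and stood at 81.5 and 52.3 CPM in GF members, at least 363-fold and 233-fold higher against a floor of 3 counts over the class. Trim12a had none in GF members and 32.5 CPM in ff members, at least 76.5-fold lower in GF. C1rb, Tpm3-rs7, Pttg1, Mpp7, Rab6b, Pcdh9, Col4a6, Ang, Fam111a and Mfap1a also differed in other barcodes by at least 2-fold in the same direction. C1s2, C1rb, Gbp2b, Tpm3-rs7 and Trim12a have close sequence copies in the genome, so their counts are uncertain. Stmn2 (stathmin 2) was lower in GF in members by 2.65 and in other barcodes by 4.42 on the log2 scale.

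Other genes differed more in the members than in the other barcodes as a whole. Hhip stood at 26.6 in ff and 168 CPM in GF members, and at 73.0 and 89.3 CPM in other barcodes. In members with both Wif1 and Bmp3 it was 27.8 and 191 CPM. Smooth muscle cells had 2301 and 2542 CPM of Hhip, and the muscle genes Des and Actg2 were also higher in GF members (Actg2 at 6.20 and 22.1 CPM); their part in the difference was not tested. Fst (follistatin) stood at 8.52 in ff and 131 CPM in GF members, with 44.4 and 447 CPM in Nrg1-positive cells and 16.4 and 49.1 CPM in other barcodes. Pianp stood at 11.4 and 108 CPM in members against 71.0 and 92.6 CPM outside. Nes (nestin) stood at 5.76 and 47.1 CPM in members, a log2 difference of 2.83 against 0.39 outside, and Prom1 at 8.22 and 36.1 CPM, a difference of 2.01 against -0.17 outside. Prom1 was higher in Nrg1-positive cells, at 25.3 and 59.7 CPM. Unc13c and Ralgps2 differed between the libraries in members by 4.67 and 5.57, in Nrg1-positive cells by 4.04 and 4.77, and in all other barcodes by 1.51 and 2.99. Unc13c rested on 3 UMIs in ff members. The Ralgps2 difference was not particular to the Foxl1-high classes. Ralgps2 stood at 1.48 in ff and 149 CPM in GF smooth muscle cells, and at 0.367 and 29.4 CPM in Col6a5-positive cells, with 1 UMI in each of these ff classes. Lipg, an endothelial lipase, was lower in GF members, at 26.5 and 9.78 CPM in members against 9.82 and 16.3 CPM outside.

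Among the listed signals, Il11ra1 was lower in GF members by 1.89 on the log2 scale (0.45 in other barcodes), and the neurotrophin receptor Ngfr was higher by 2.45 (8.52 and 51.2 CPM in members, 1.73 and 4.51 CPM outside). Ednrb was higher in GF members by 1.07 and lower in other barcodes by 0.67. Bmp2 and Bmp5 differed by 0.54 and -0.82, both under 2-fold. Cxcl12 was lower in GF members by 0.59 (interval of the ratio -0.63 to -0.55) and higher in other barcodes by 0.13. The adventitial genes Pi16 (log2 1.73) and Mfap5 (1.67) were higher in GF members, beside the larger share of GF members with adventitial markers, and were also higher in GF among other barcodes (1.07 and 0.62). In members with both Wif1 and Bmp3 the Pi16 difference was 1.48, Fgfbp1 8.68, Hhip 2.73, Fst 3.81 and Cxcl12 -0.67. Cell identity within the members, strain, library and housing status cannot be told apart in these differences.

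**Figure D5:**
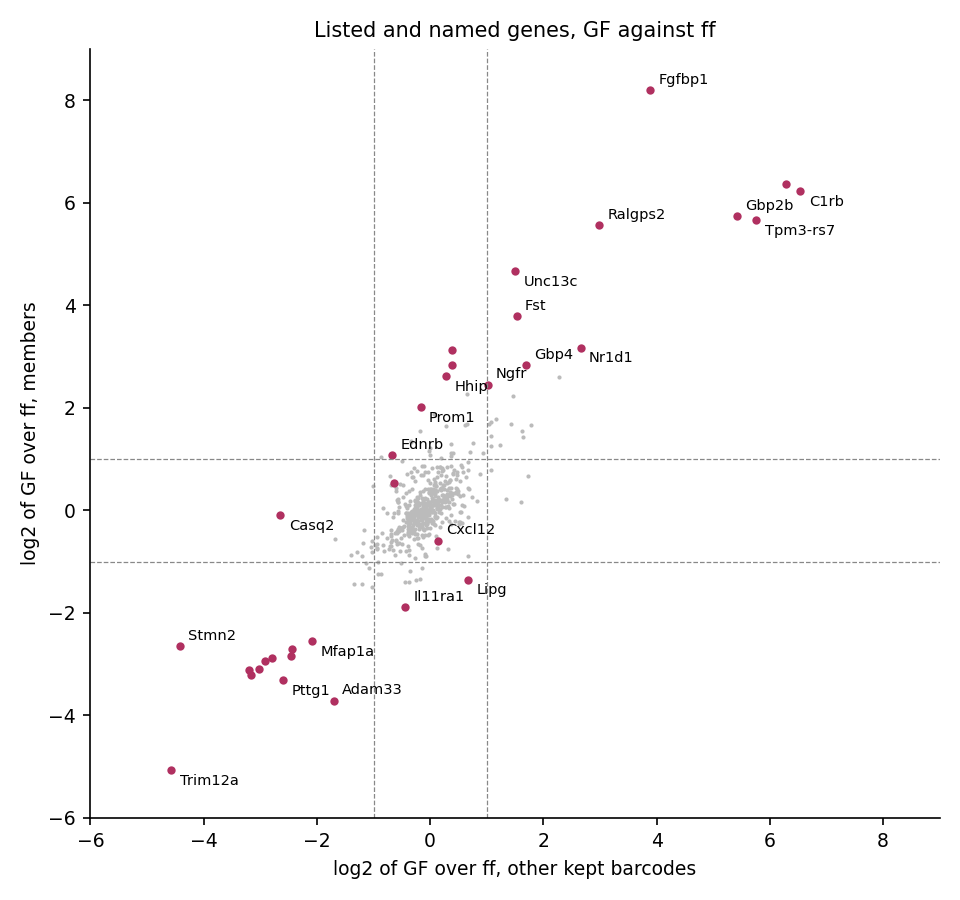
Log2 of GF over ff in other kept barcodes (x) and in members (y) for the listed and named genes with at least 200 UMIs over members; dashed lines mark 2-fold and named genes are in red. Fgfbp1 stands at 3.89 and 8.21, and Hhip at 0.29 and 2.62.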

How the data were processed

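The deposited tables hold raw UMI counts per Ensembl gene and barcode, with no normalization by the authors. The submitters' processing notes name Cell Ranger 6.0.0 and mm10 and give no annotation release. Symbols were matched for 32158 of 32285 genes. The 2 tables held 13704 ff and 16388 GF barcodes (119866589 and 105331294 UMIs), with at least 500 UMIs each. The members were selected with the rule given above, and their UMIs were summed per library and expressed as CPM. A gene was called at 2-fold, ratios had 1 CPM added, and intervals (95%; Poisson, conditional binomial without added CPM, or Clopper-Pearson) cover counting error only. Cells are not replicates, so no p-value was computed. Doublets were not removed in the main values; Scrublet (scanpy 1.11.5) calls were used as an alternative. Computations used Python 3.11.15 with numpy 2.4.6 and scipy 1.17.1, and the ratio was tested on simulated data.

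The members and the 34 gene lists were chosen with earlier results of these data known. A few listed genes enter the counts and are not reported here by name. Genes were named by rule: from each list, those with the largest ratio of the same sign in both libraries, the member with the highest level and those against their list; otherwise the 15 highest and 15 lowest genes of members against others, the 12 highest and 12 lowest of GF against ff, the 10 whose GF against ff ratio differed most from other barcodes, and the 15 most variable. These rankings skipped the rule's genes, unnamed gene models, sex genes and the mitochondrially encoded, ribosomal, haemoglobin and immunoglobulin genes. Gene positions are from GENCODE vM21 on GRCm38.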

Additional observations from a re-analysis of the deposited data

Results flagged for a closer look

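Of 716 listed, marker or named genes examined, 7 were at least 1.5-fold higher than in other barcodes in the members of one library and at least 1.5-fold lower in the members of the other, with exact intervals of both ratios away from 0. The difference between the libraries was not tested, since each group is 1 library. Higher in GF members and lower in ff members were Fst (log2 of members over other barcodes -0.87 in ff and 1.40 in GF), Hhip (-1.42 and 0.91), Ralgps2 (-1.02 and 1.56), the growth factor Pdgfc (-0.74 and 1.17) and the transcription factor Prdm1 (-1.12 and 0.80). The reverse held for Lipg (1.35 and -0.68) and the chemokine Cx3cl1 (0.71 and -0.74). Cx3cl1 rested on 86 UMIs in ff and 19 in GF members, and Ralgps2 on 20 UMIs in ff members. The other barcodes include the Nrg1-positive cells, which were 6.28% of kept barcodes in ff and 2.18% in GF. These cells held more Prdm1 (152 and 213 CPM) and Fst (44.4 and 447 CPM) than members. Their part in the ratios was not tested.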

How the results depend on the processing

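No paired analysis was possible because each group is 1 library, and no replicate could be left out. The share of members in ff and GF was 8.08% and 3.87% with a Wif1 and Bmp3 sum of at least 3, 4.29% and 2.74% after thinning to 3000 UMIs, and 9.38% and 4.94% without Scrublet doublets. It was 11.0% and 7.02% over collagen-positive barcodes, 6.33% and 2.50% with both genes required (an alternative chosen after seeing the data), and 5.79% in GF with at least 2000 UMIs and at most 5% mitochondrial UMIs. It was lower in GF in each of these. Thinning left 30 genes higher and 41 lower in GF members, 56 listed genes higher in members than in Nrg1-positive cells and 93 genes of variable level. Adding 10 CPM left 184 genes higher and 214 lower than in other barcodes, 65 higher and 59 lower in GF, and 19 listed genes higher than in Nrg1-positive cells. Genes higher and lower in GF members numbered 268 and 240 with a minimum of 50 UMIs, 32 and 39 with 1000, and 404 and 330 with none, as fewer or more genes were compared. A minimum of 1000 UMIs left 353 genes lower than in other barcodes. Requiring both Wif1 and Bmp3 left 82 genes higher in GF, among a number of compared genes that is not given. The single gene values checked were mostly those named for large ratios, and a change of the added CPM cannot reverse a sign. The count of kept signs is therefore no measure of robustness. Over 106 called gene values and 10 alternatives, 1027 of 1030 values kept their sign and 36 fell under 2-fold. The 3 that reversed were Ccl21a in ff (2.36), Mmrn1 in ff (1.14) and Cd53 in GF (0.20) against collagen-positive barcodes. The causes were not tested. Depth limits genes near the floor, such as Fgfbp1 in ff members.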
